A study of Mus musculus with 6 samples.

Results

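The neighbourhood described here lies on mouse chromosome 13 and holds Ptch1 with Ercc6l2 and Hsd17b3, the next protein-coding genes on its upstream side. Its members are the ChIP-seq peaks whose summit, the base of highest signal, fell within 200 kb of one of the 3 gene intervals. They numbered 16 of 3640 peaks in the doxycycline list and 1 of 4379 in the untreated list. The genes were chosen by the peaks themselves, because an earlier look at these lists had found doxycycline peaks crowded on a stretch with Ptch1 and Ercc6l2. The number of peaks and their strength are therefore given as a description, without a test.

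The cells were cardiac progenitors differentiated from mouse embryonic stem cells of the A2Lox.cre strain and harvested on day 6. All of them carried the same GLI3R-FTA line, in which doxycycline switches on a tagged GLI3R, so the untreated cells hold the transgene as well. The doxycycline cells received 500 ng/ml of the drug for 24 h from day 5, and the untreated cells received none. Tagged protein was pulled down through its Avi tag with streptavidin beads in 4 libraries, with 2 per condition, and 2 further libraries were inputs, with 1 per condition. Each condition was deposited as 1 peak list on mm10, so peaks have no replicate error. The lists hold no expression values against which the cell type could be checked.

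Ptch1 encodes the receptor that keeps the Hedgehog pathway silent until ligand binds it. It is itself a target of the GLI transcription factors, so that an active pathway raises its own inhibitor. GLI3R, the truncated form of GLI3, occupies GLI target genes and holds them down when ligand is absent. Ercc6l2 encodes a helicase-like protein of the SNF2 family with a part in DNA repair, and Hsd17b3 encodes the enzyme that makes testosterone from androstenedione in the testis.

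Ptch1 (63508328 to 63573460) and Hsd17b3 (64058274 to 64089262) are read from the minus strand, and Ercc6l2 (63810979 to 63900302) from the plus strand. Ptch1 and Ercc6l2 therefore stand head to head across 238 kb, and Ercc6l2 and Hsd17b3 stand tail to tail across 158 kb. The gene table lists 1 start for Ptch1 at 63565735, while the gene interval reaches 7.72 kb farther upstream. For Ercc6l2 the listed start is 63815240, inside a gene interval that begins at 63810979. A listed start therefore need not be the outer 5′ end of its gene. The sequences around the listed starts are shown to place those starts relative to the peaks. Each runs from 250 bases before the start to 50 after it, is read along its gene's strand, comes from RefSeq on GRCm38.p6 (the assembly of mm10), and has its CG pairs in capitals.
Ptch1: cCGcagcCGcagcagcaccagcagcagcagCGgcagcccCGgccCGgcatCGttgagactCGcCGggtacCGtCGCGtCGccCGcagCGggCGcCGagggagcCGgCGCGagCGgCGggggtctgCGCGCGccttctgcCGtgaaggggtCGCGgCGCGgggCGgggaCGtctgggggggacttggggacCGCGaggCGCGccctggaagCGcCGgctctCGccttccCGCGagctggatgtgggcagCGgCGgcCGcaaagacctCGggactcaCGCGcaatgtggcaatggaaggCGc
Ercc6l2: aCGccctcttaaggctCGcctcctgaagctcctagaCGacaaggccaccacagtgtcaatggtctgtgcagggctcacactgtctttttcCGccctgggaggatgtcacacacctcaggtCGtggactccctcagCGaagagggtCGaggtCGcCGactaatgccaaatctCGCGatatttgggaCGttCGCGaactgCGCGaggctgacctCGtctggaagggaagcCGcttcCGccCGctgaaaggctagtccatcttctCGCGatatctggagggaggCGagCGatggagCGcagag
Hsd17b3: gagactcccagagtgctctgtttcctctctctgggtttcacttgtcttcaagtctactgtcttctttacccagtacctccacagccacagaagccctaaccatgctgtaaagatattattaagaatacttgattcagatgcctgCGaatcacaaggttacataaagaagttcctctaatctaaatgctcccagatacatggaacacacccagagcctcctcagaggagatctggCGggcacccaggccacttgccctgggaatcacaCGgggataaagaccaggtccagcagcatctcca

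The Ptch1 window (chr13:63565686-63565985) had a G+C content of 76.3% with 47 CG pairs, the Ercc6l2 window (chr13:63814990-63815289) 59.7% with 25, and the Hsd17b3 window (chr13:64089152-64089451) 48.7% with 3. Over 21045 windows of protein-coding genes the medians were 56.7% and 13. None of the 3 windows overlapped a listed peak. Positions relative to a start are given here as negative downstream of it and positive upstream. A doxycycline summit lay at -0.62 kb from the listed Ptch1 start and another at 0.734 kb. The edges of those peaks were 448 and 334 bases from the window. The nearest doxycycline summit was 86.3 kb from the listed Ercc6l2 start and 54.0 kb from the listed Hsd17b3 start, in each case downstream. The GLI motif GACCACCCA, searched on both strands (TGGGTGGTC on the other), had 0 exact matches in the 3 windows and 0 with 1 mismatch allowed. Of all 32851 promoter windows 0.253% held an exact match and 6.74% one with at most 1 mismatch. The letters under the peaks themselves were not analysed here.

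Within 1 kb of a listed start, Ptch1 had 2 doxycycline summits and 0 untreated summits, and Ercc6l2 and Hsd17b3 had 0 in both lists. Of all protein-coding genes with a listed start, 1.37% had a doxycycline summit that close and 0.249% an untreated one.

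The strongest peak of the neighbourhood was the one upstream of the listed Ptch1 start. It spanned 63566320 to 63566944, was 625 bp wide, and was enriched 17.7-fold by the authors' value, with 25 fragments stacked at the summit (95% counting interval of the fold 11.7 to 25.8). It ranked 46th by −log10 q (30.1) among the 3640 doxycycline peaks. Fragment counts here and below were worked back from the authors' fold and p, and intervals are exact Poisson intervals that cover counting error only. A second summit of the same peak lay 331 bp away, at 7.49-fold and 10 fragments (3.95 to 13.2).

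The other 3 summits of the Ptch1 run lay on both sides of it. Inside the gene, at -2.55 kb from the listed start, a peak of 574 bp (63562837 to 63563410) reached 10.2-fold with 13 fragments (5.79 to 17.0). The summit at -0.62 kb belonged to a narrow peak of 186 bp (63565052 to 63565237) with 6 fragments and 5.12-fold enrichment (2.34 to 10.3). At the outer 5′ end of Ptch1 a peak of 408 bp (63573384 to 63573791) lay across the end of the gene interval. Its best summit stood 0.234 kb beyond that end at 9.93-fold and 13 fragments (5.62 to 16.5), and its other summit 217 bp away at 8.77-fold and 11 fragments (4.74 to 15.1). The 4 best summits of this run spanned 10.5 kb. The interval of the strongest peak lay above that of the 6-fragment peak and overlapped those of the other 2.

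**Figure D1:**
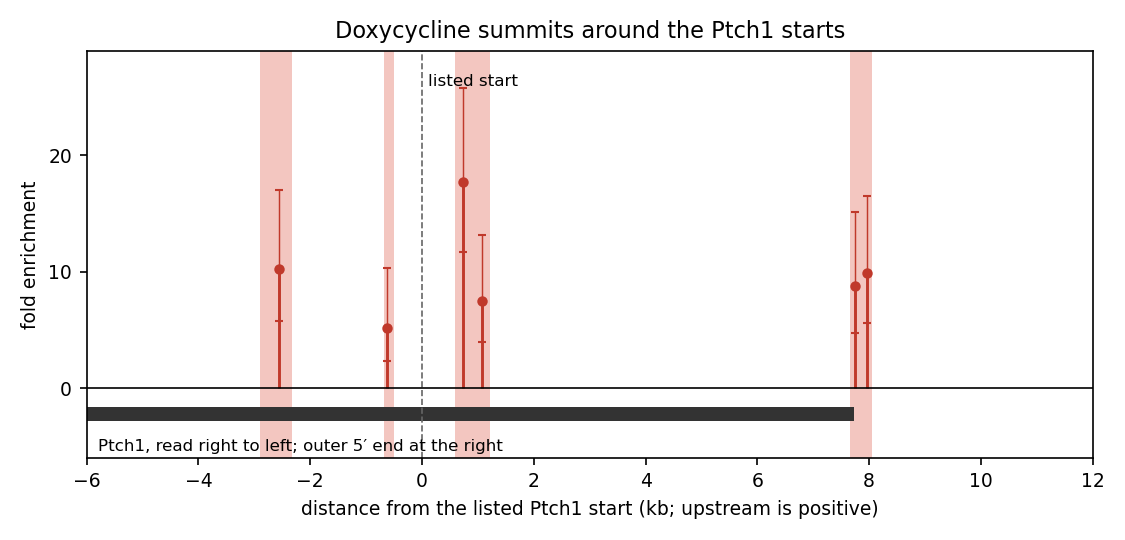
Doxycycline summits around the Ptch1 starts. The x axis gives the distance from the listed start in kb, positive upstream, and the y axis the fold enrichment; points are summits, bars their 95% Poisson counting intervals, shaded bands the 4 peaks, and the dark bar the Ptch1 gene. The 17.7-fold summit stands 0.734 kb upstream of the listed start, and the peak at the right edge of the gene holds summits of 9.93-fold and 8.77-fold.

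Between Ptch1 and Ercc6l2 the doxycycline list had 0.842 summits per 100 kb, fewer than inside Ptch1 (4.61) or between Ercc6l2 and Hsd17b3 (3.8). Over chromosome 13 it had 0.13. Apart from the peak at the Ptch1 end, the 238 kb that separate the heads of these genes held 1 summit, inside the long non-coding RNA gene 1700024I08Rik. That peak (63726024 to 63726309) had 7 fragments and 5.85-fold enrichment (2.79 to 11.3). It was 152 kb from the summit before it and 175 kb from the next, the widest spacing of the neighbourhood. No summit of either list fell inside Ercc6l2.

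The interval between the tails of Ercc6l2 and Hsd17b3 held 6 doxycycline summits and 0 untreated summits. All 6 had a −log10 q of at least 5, and together they stacked 72 of the 167 fragments of the 16 doxycycline summits. The 3 summits inside Ptch1 stacked 44, and the 4 of the Ptch1 run 57. The strongest of the 6 (63901403 to 63901619) lay 1.2 kb past the end of Ercc6l2, within the non-coding RNA gene Gm46423, at 13.2-fold and 17 fragments (7.97 to 20.6). It ranked 98th in the doxycycline list by −log10 q. The next peak, 16.7 kb on (63918162 to 63918331), reached 8.77-fold with 11 fragments (4.74 to 15.1).

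After a spacing of 62.3 kb the other 4 followed at 22.7, 17.9 and 14 kb from one another, none inside an annotated gene. Their folds were 7.31 with 9 fragments (63980448 to 63980796), 8.04 with 10 (64003196 to 64003419), 8.04 with 10 (64021063 to 64021335) and 11.7 with 15 (64035069 to 64035394). The counting intervals of these 4 overlapped, the lowest running from 3.74 to 13.2 and the highest from 6.87 to 18.8. The order of the 4 was not tested, and nothing is read from it. The last of them was 23.1 kb from Hsd17b3 and the nearest summit to that gene in either list. From the listed Ptch1 start these 6 summits were 335.8 to 469.5 kb upstream. Position alone does not assign a summit to any of the 3 genes.

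No summit of either list fell inside Hsd17b3. In the 200 kb beyond it the doxycycline list had 1 summit, of 5 fragments and 4.09-fold (1.79 to 8.63). It lay inside Habp4, a gene for a hyaluronan-binding protein, at -0.672 kb from that gene's start. The untreated list had its only summit of the neighbourhood there, 193 kb from Hsd17b3, at 5 fragments and 4.72-fold (2.06 to 9.96). It stood 6.94 kb upstream of Cdc14b, which encodes a phosphatase, and 119 kb from the nearest doxycycline summit. No peak of the neighbourhood was shared between the lists. With 1 untreated summit at that distance there was almost nothing to share, and the share over the whole lists was not analysed here. Nothing is therefore read from the lack of shared peaks.

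On the other side of Ptch1, 4 doxycycline summits lay inside Fancc, which encodes a protein of the Fanconi anaemia DNA repair complex. Fancc is read from the minus strand and has a listed start at 63431745. The summits nearer Ptch1 lay 4.61, 43.9 and 44.4 kb upstream of that start, though within the gene interval. The 4 summits had 6, 6, 7 and 7 fragments and folds between 4.97 and 5.8. The last 2 (63475543 to 63475701 and 63475942 to 63476276) were 0.532 kb apart, the closest spacing of the neighbourhood, and stood 32.7 and 32.1 kb from Ptch1. Their intervals, 2.65 to 10.7 and 2.76 to 11.2, did not separate them from the other 2. Of the remaining protein-coding genes, Aopep, Slc35d2, Zfp367 and Cdc14b held no summit of either list.

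**Figure D2:**
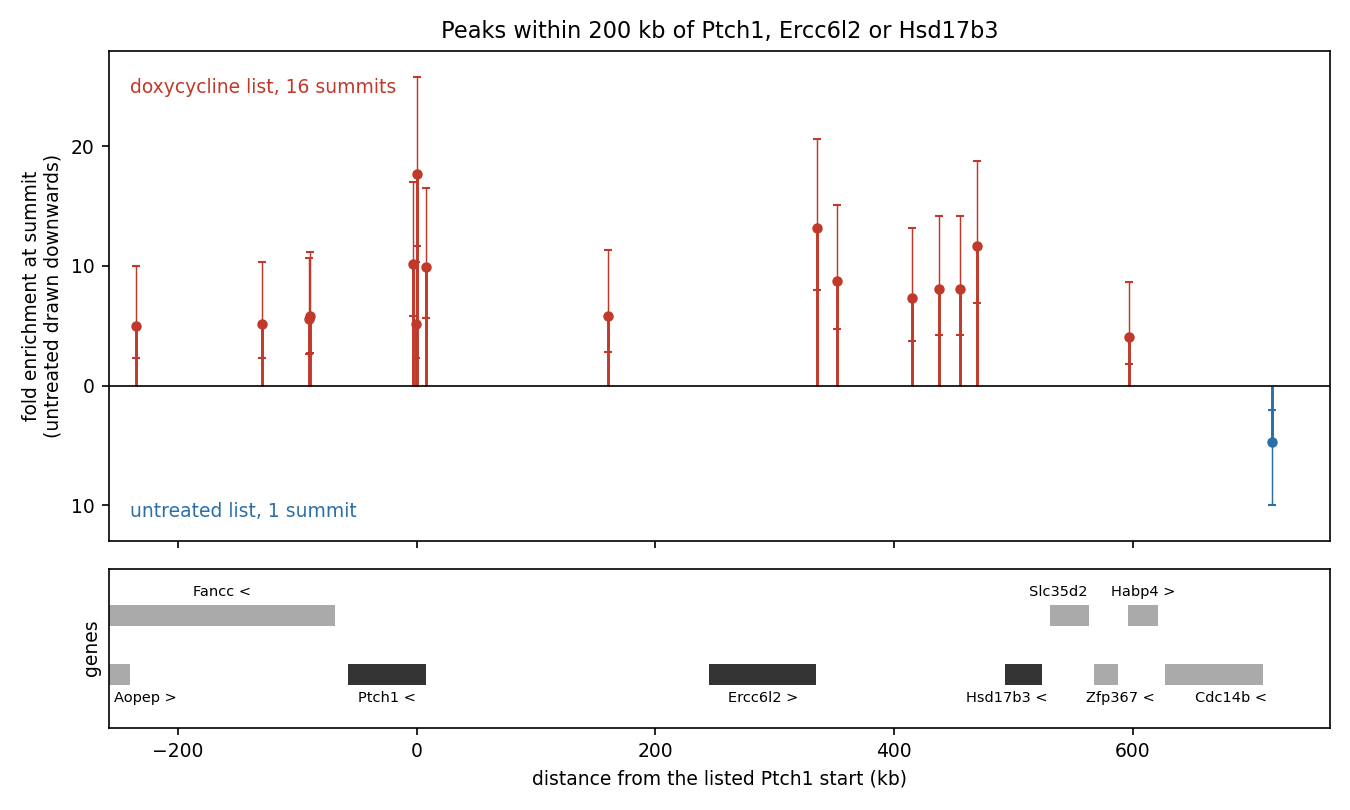
Peaks of the neighbourhood by position. The x axis gives the distance from the listed Ptch1 start in kb and the y axis the fold enrichment, with the doxycycline list drawn upwards and the untreated list downwards; bars through the points are 95% Poisson counting intervals, and the lower panel shows protein-coding genes, members dark, with > for the plus and < for the minus strand. The taller doxycycline summits stand at Ptch1 and between Ercc6l2 and Hsd17b3, with none inside Ercc6l2 or Hsd17b3.

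The stronger of the 16 doxycycline summits stood in 2 places. The 9 with a −log10 q of at least 5 were 3 at Ptch1 and the 6 between Ercc6l2 and Hsd17b3. The other 7 had 5 to 7 fragments, where the list itself begins at 5, and were spread over Fancc, the narrow peak at Ptch1, 1700024I08Rik and Habp4. In the whole doxycycline list 33.3% of peaks reached that −log10 q and 6.43% reached 10-fold, which 4 of the 16 did. The upper bounds of all 7 weaker summits (up to 11.3-fold) were below the lower bound of the strongest peak, while 8 others overlapped it. The members' median pileup was 9.5 fragments against 7 in the list, their median fold 7.67 against 5.5, and their median width 248.5 against 160 bp. Since these peaks led to the choice of the genes, nothing further is read from those differences.

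The local expectation, which is the number of fragments the peak caller allowed for at the site, was at most 1.27 times its usual value. At the 16 doxycycline summits it ran from 1.0 to 1.27 times the most frequent value of 0.368 fragments, and at the untreated summit it was 1.0 times 0.272. It was more than 5% above the most frequent value at 5 of the 16 doxycycline summits, including the strongest (1.27 times). In the whole doxycycline list 18.9% of peaks were raised by that much. A stretch at the start of chromosome 9 that also holds many summits had a median of 16.2 times. Peaks with more than 1 summit were uncommon in the doxycycline list, at 46 of 3640 (1.26%), and the 2 of the neighbourhood were both at Ptch1.

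Spacing was uneven. The 16 doxycycline summits spanned 832 kb from 63330410 to 64162538, with a median of 22.7 kb between neighbours, against 414 kb over the whole doxycycline list. A short median follows from the choice of a crowded stretch, so nothing is read from that difference, and the values describe how the summits are laid out within it. Of the 15 spacings 4 were under 10 kb and 4 over 100 kb. Over all 3620 spacings of the list 4.89% were under 10 kb. The neighbourhood had 1.63 doxycycline summits per 100 kb, against 0.13 over chromosome 13. It covered 0.823% of that chromosome's length (to its last peak) and held 10.3% of its doxycycline summits. By segment the number per 100 kb was 2.0 in the 200 kb before Ptch1, 4.61 inside Ptch1, 0.842 between Ptch1 and Ercc6l2, 3.8 between Ercc6l2 and Hsd17b3 and 0.5 beyond Hsd17b3.

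**Figure D3:**
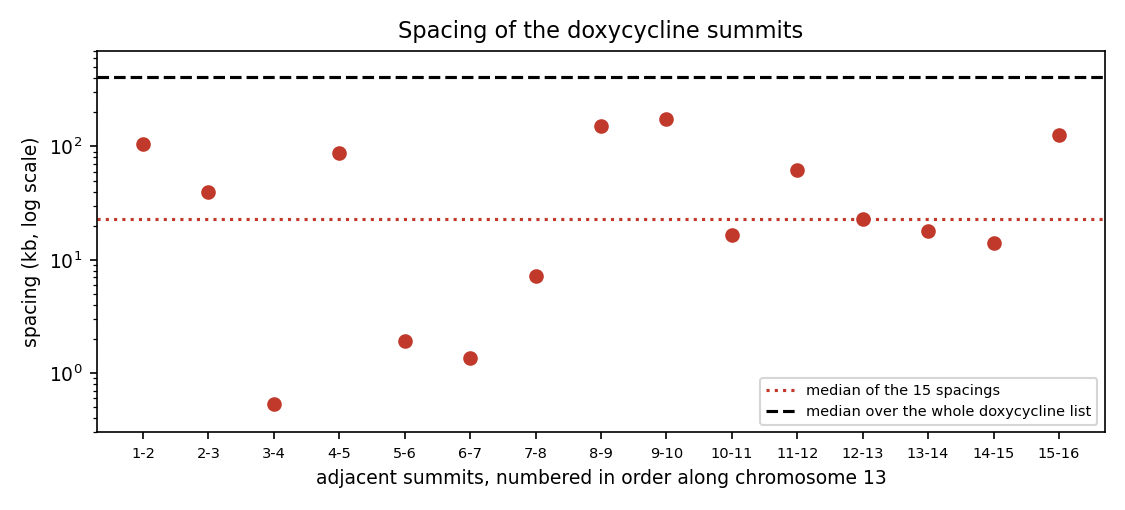
Spacing between adjacent doxycycline summits, numbered 1 to 16 in order along chromosome 13. The y axis is a log scale in kb, each point is 1 spacing, the dotted line is their median (22.7 kb) and the dashed line the median over the whole doxycycline list (414 kb). All 15 points lie below the dashed line, from 0.532 to 175 kb.

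Beyond the neighbourhood both lists were empty for some distance. The next doxycycline summits stood 1160 kb before Ptch1 (5.85-fold) and 488 kb past Hsd17b3 (4.39-fold), and the outermost included ones 178 kb before Ptch1 (4.97-fold) and 73.3 kb past Hsd17b3 (4.09-fold). The next untreated summits stood 844 kb before Ptch1 and 1120 kb past Hsd17b3. The 200 kb limit therefore did not pass through a run of peaks.

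For each gene the count grew differently with distance. Ptch1 had 3 doxycycline summits inside it, 4 within 10 kb, 6 within 50 kb, 7 within 100 kb and 9 within 200 kb, against 0 untreated summits at each distance and also within 500 kb. Ercc6l2 had 0 inside, 1 within 10 kb, 2 within 50 kb, 4 within 100 kb and 7 within 200 kb, against 0 untreated within 200 kb. Hsd17b3 had 0 within 10 kb, 2 within 50 kb, 5 within 100 kb and 7 within 200 kb, against 1 untreated within 200 kb. Of the summits counted for Hsd17b3, 6 are also counted for Ercc6l2, so these counts are not independent.

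Among 21631 protein-coding genes 20.3% had at least 1 doxycycline summit within 50 kb and 49.4% within 200 kb. For untreated summits the shares were 19.1% and 48.1%, so a gene without an untreated summit within 200 kb, such as Ptch1 or Ercc6l2, is common. Counts as high as those of the 3 genes were rare in the doxycycline list. The genes were chosen for their crowded doxycycline peaks, so a high rank follows from that choice. The shares below describe the rank and are not a test. As many as the 9 of Ptch1 were found at 10 genes (0.0462%), Ptch1 included, and the other 9 genes all lie on chromosome 10 from 79960152 to 80106108, with 2 or 3 untreated summits each. As many as the 7 of Ercc6l2 or of Hsd17b3 were found at 29 genes (0.134%). As many as the 6 of Ptch1 within 50 kb were found at 0.00925% of genes. With −log10 q of at least 5 the share of genes level with Ptch1 within 200 kb was 1.12%. Long genes collect more summits by this count, and the members' lengths were 65.1 kb for Ptch1, 89.3 kb for Ercc6l2 and 31.0 kb for Hsd17b3.

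**Figure D4:**
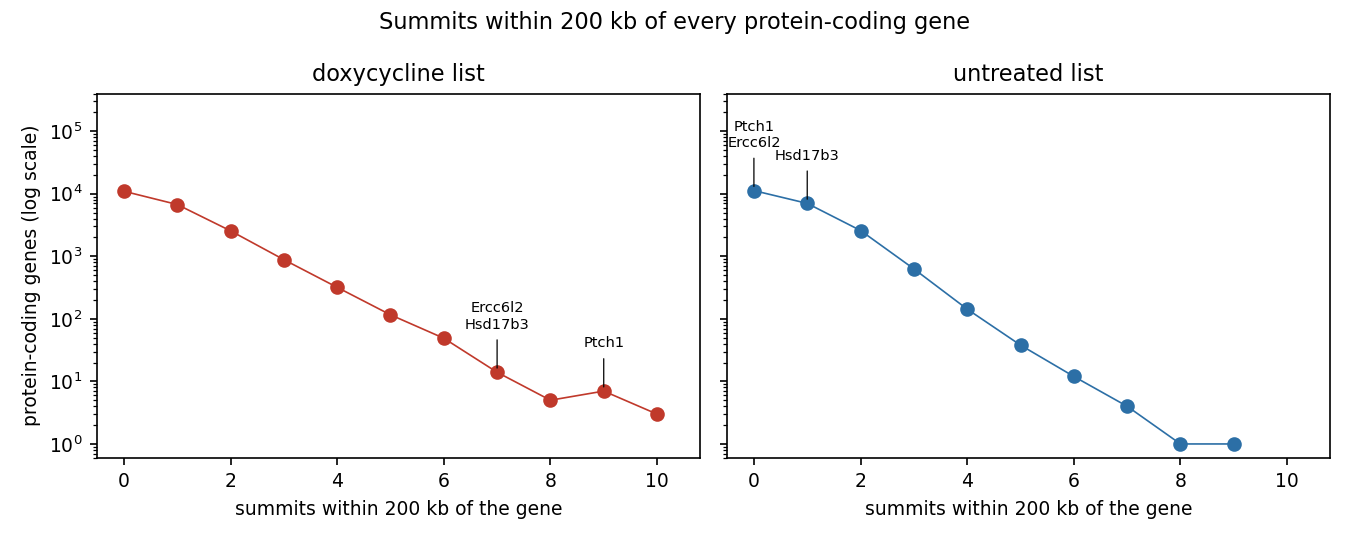
Number of summits within 200 kb of each of 21631 protein-coding genes, with the doxycycline list at the left and the untreated list at the right. The x axis is the number of summits and the y axis the number of genes on a log scale. In the doxycycline list Ptch1 stands at 9 and Ercc6l2 and Hsd17b3 at 7, and in the untreated list Hsd17b3 stands at 1 and the others at 0.

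By stretch of chromosome, how many places of the doxycycline list were as dense depended on the length of the window. No window of 981 kb, the length of the neighbourhood, held 16 or more summits except here and at the start of chromosome 9. That length and that count were both taken from a stretch chosen as crowded, so its high place is largely built in. A window of 500 kb starting at the first Ptch1 summit held 11, and again only the chromosome 9 stretch had as many. Windows of 100 kb with 6 summits, the most reached here, were found in 4 separate stretches including this one, on chromosomes 5, 9, 10 and 13. A window of 10 kb held at most 3 summits here, at Ptch1, and 25 separate stretches had as many, with up to 9 on chromosome 9. The chromosome 9 stretch (3001214 to 3139990) had 25 doxycycline and 29 untreated summits, with a local expectation above 2 times the usual value, or none that could be worked back, at 24 of the 25.

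The genes most like Ptch1 in this respect, taken as the 5 with most doxycycline summits within 200 kb at 1 per 1000 kb, were Grin3b, Smad6, Acot11, Rnf220 and Hes1. Grin3b, a glutamate receptor subunit gene in that stretch of chromosome 10, had 10 doxycycline and 2 untreated summits. Smad6, an inhibitor of BMP signalling, and Acot11, a thioesterase gene, had 8 each and 0 untreated. Rnf220, a ubiquitin ligase gene, had 7 and 2 untreated. Hes1, a transcriptional repressor known as a Notch target, had 7 and 0 untreated. The strongest summit of a gene is taken here as the one with the highest −log10 q, so its fold need not be the highest. In the doxycycline list it was 14-fold at Grin3b, 12.9-fold at Smad6, 7.02-fold at Acot11, 22.5-fold at Rnf220 and 19.6-fold at Hes1. At Ptch1 it was 17.7-fold. At Grin3b the strongest doxycycline summit stood 61.4 kb from the gene. The strongest untreated summit, also 61.4 kb away, was 664-fold, whereas Ptch1 had no untreated summit.

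Among the Hedgehog pathway genes Ptch1 had the most doxycycline summits. Ptch1 was chosen for its crowded doxycycline peaks, so that place follows from the choice and is not a test. Of 23 genes of the pathway, Ptch1 included, 19 had a doxycycline summit within 200 kb (82.6%, against 49.4% of all genes). An untreated summit was that close at 14 (60.9%, against 48.1%). Their median was 1 summit in either list, against 0 over all genes. After Ptch1 came Sufu, an inhibitor of GLI proteins, and Hhip, which binds ligand at the cell surface, with 3 doxycycline and 1 untreated summit each. The ligand co-receptor gene Cdon had 1 doxycycline and 2 untreated summits. The strongest doxycycline summit, again by −log10 q, stood 110 kb from Sufu at 14.7-fold, inside Hhip at 7.31-fold and 116 kb from Cdon at 5.1-fold. No pileup could be worked back for the Cdon summit, and the strongest untreated summit of that gene, also 116 kb away, had 703 fragments at 4.79-fold. No other gene of the pathway reached the 9 of Ptch1.

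The doxycycline list begins at 5 fragments and the untreated list at 4. A place without an untreated peak is one where none was listed, and the untreated signal there was not measured. Library totals were not analysed here.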

How the data were processed

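The 6 libraries were grouped by their titles into pull-downs and inputs with and without doxycycline. GLI3R follows the titles, although the labels' treatment text has GLI1. The authors worked on mm10 with MACS2 2.1.1, SAMtools 1.5 and Bowtie2 2.3.2, per the submitters' processing notes. Whether pull-downs were pooled, how inputs were used and the settings are each not given in the sources used here. Fold (a ratio), −log10 p, −log10 q and the summit's offset in the peak (no other score was used) are the authors' deposited values, used only within a list.

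Rows sharing an interval were merged to their best summit (3725 rows became 3640 doxycycline peaks, and 4428 became 4379 untreated). Fragments at a summit and their local expectation were solved from fold = (pileup + 1) / (expectation + 1) and a Poisson upper tail, within 0.01 of −log10 p for 99.65% and 99.77% of rows. The rows with a −log10 p too large to compute were left without a pileup. Genes and promoters came from RefSeq tables on GRCm38.p6, on the 20 chromosomes of the lists. Distances run to the gene interval. Coordinates count from 1. Members, lists and alternatives were chosen with earlier results of these data known. Named genes are the 3 members, protein-coding neighbours, the 4 Hedgehog genes (1 of them not reported here) and the 5 others with most doxycycline summits. Steps were tested on simulated data, where 100% of 1972 pileups were recovered. The tools were scipy 1.17.1, matplotlib 3.10.9, pandas 2.3.3 and numpy 2.4.6 under Python 3.11.15.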

Additional observations from a re-analysis of the deposited data

How the results depend on the processing

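Of 63 values recomputed under other settings 40 stayed within their limits (1.5 times for counts and spacings), 23 moved and 0 changed sign. Keeping −log10 q values from 5 up left 9 doxycycline and 0 untreated summits (difference 9), with at least 10 fragments 8 and 0 (difference 8, at most 3 in 100 kb), and with at least 10-fold enrichment 4 and 0 (difference 4, at most 2 in 100 kb, median spacing 134 kb). These keep fewer peaks by construction. Within 50 kb of the genes there were 10 and 0 (median spacing 14 kb), and within 100 kb 0 untreated. The share of genes level with Ptch1 was 1.12%, 0.361% and 0.707% under those 3 thresholds, 0.00462% with every row a summit, 0.00925% within 50 kb and within 100 kb, and 0.0185% within 500 kb. No peak was shared between the lists under any overlap rule tried, which follows from the lone untreated peak lying far from the others. No motif match appeared with 1 mismatch. No paired analysis was possible because neither list has a column per replicate. With pileups of 5 to 25 fragments, only the strongest summit had an interval apart from those of the 7 weaker ones. Overlap of intervals does not show that summits are equal, and differences between summits were not tested.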
